A study of Mus musculus with 4 samples.

Results

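The 7 CC chemokine genes described here are Ccl2, Ccl3, Ccl4, Ccl5, Ccl7, Ccl11 and Ccl20. They were chosen by name and selected on their FPKM in these 4 libraries, for being higher at 10 days or staying silent, so the levels and differences given for them are a description with no test. All 7 stood in the expression table, among 9997 gene symbols. Ccl2, Ccl7 and Ccl20 were low in the control embryoid bodies and at 0 days, higher at 6 days and higher again at 10 days, where they reached 39.0, 17.2 and 62.1 FPKM. Ccl5 and Ccl11 stayed below 1 FPKM in every library, Ccl3 was listed at 0 in both later libraries, and Ccl4 was listed at 0 in all 4.

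RNA was sequenced from embryoid bodies, aggregates of differentiating cells, made from ES-E14TG2a, a line of mouse embryonic stem cells. There were 4 groups with 1 library each: a control, whose title names embryoid bodies and no ATRA, and bodies labelled ATRA at 0, 6 and 10 days. ATRA is all-trans retinoic acid, a vitamin A derivative used to drive stem cells toward neurons. Its dose was 5 µM, added on culture days 4 and 6, and after 8 days in suspension the bodies were moved to dishes coated with polyornithine and laminin; medium with serum was shared by all groups. The culture day of the control, the day from which the 0, 6 and 10 days were counted, and the number of bodies or cultures behind a library are not stated in the labels. All values come from 1 cell line, and no difference below has a replicate check.

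Levels are in FPKM, which divides a gene's fragments by transcript length and by the mapped fragments of the library, so they can be compared between genes. Differences are on the scale log2(FPKM + 1), which understates the change of low genes, and a call of higher or lower needed 2-fold or more, that is a log2 difference of 1 or more. Calls were made only for the 5885 symbols that reached 1 FPKM in some library. The libraries held an estimated 25400000 to 29200000 fragments, judged from transcripts of 2000 nt or more. From transcripts of 650 to 1100 nt, 1 fragment on a transcript of 800 nt was worth about 0.0553 to 0.0599 FPKM. The floor of 3 fragments on such a transcript was therefore 0.166 to 0.180 FPKM per library, for counting error only. Each estimate is the median of low values inside a fixed range, which limits where it can fall. Fragment numbers, the floor and counting errors are therefore rough. The estimates from long and short transcripts do not convert into each other. The pluripotency factor Pou5f1, a check of the stem cell label chosen after earlier results were known, was at 1241 FPKM in the control and at 97.4, 150.0 and 140.9 FPKM at 0, 6 and 10 days. Of 14 listed neuronal markers 7 were in the table, and their summed level was 9.62 FPKM in the control and 17.0, 80.2 and 40.4 at 0, 6 and 10 days. In bulk libraries of mixed bodies, fewer cells of a type and less RNA per cell cannot be told apart.

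CC chemokines are small secreted proteins, named for neighbouring cysteines near their amino end, that bind receptors coupled to G proteins and direct the migration of leukocytes. Many of their genes are switched on by inflammatory signals through the transcription factor NF-kappaB, and besides leukocytes they are made by fibroblasts, epithelia, endothelium and cells of the placenta. Ccl2 and Ccl7 attract monocytes through Ccr2, Ccl20 is the chemokine ligand of Ccr6, Ccl3, Ccl4 and Ccl5 are inflammatory chemokines of leukocytes, and Ccl11 attracts eosinophils through Ccr3.

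The promoter sequences of Ccl20 and Ccl3 are shown because they mark the ends of the range at 10 days among the genes with an entry: Ccl20 had the highest level of the family there, and Ccl3 was listed at 0. The RefSeq promoter table, on build GRCm38.p6, had entries for 2 of the 7 genes, Ccl3 and Ccl20, and for 8 of the 13 CC chemokine genes in the expression table. Each line gives the 250 bases before the start site, 5′ to 3′ on the gene's own strand, at chr1:83116516-83116765 on the plus strand for Ccl20 and at chr11:83649379-83649628 on the minus strand for Ccl3. Capitals mark every match, on either strand, to the motifs searched: the kappaB consensus bound by NF-kappaB, the AP-1 site TGANTCA, the TATA box TATAAA, the interferon element of the GAAA repeat type, and the retinoic acid receptor half-site AGGTCA, alone or as a direct repeat with a spacer of 5 bases.
Ccl20: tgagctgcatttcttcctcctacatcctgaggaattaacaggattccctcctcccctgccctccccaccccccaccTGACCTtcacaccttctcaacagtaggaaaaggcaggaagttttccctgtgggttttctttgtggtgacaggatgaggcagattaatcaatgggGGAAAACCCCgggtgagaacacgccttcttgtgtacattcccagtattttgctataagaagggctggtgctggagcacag
Ccl3: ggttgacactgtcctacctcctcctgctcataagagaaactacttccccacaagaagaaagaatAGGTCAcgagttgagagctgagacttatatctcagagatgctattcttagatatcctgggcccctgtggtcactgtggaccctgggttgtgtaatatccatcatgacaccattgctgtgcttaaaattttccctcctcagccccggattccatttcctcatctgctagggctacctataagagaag

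The Ccl20 promoter held a kappaB consensus match on the opposite strand, GGAAAACCCC, whose first base lies at -80 from the start site. It also held a half-site on the opposite strand, TGACCT, at -174. The Ccl3 promoter held a half-site on its own strand, AGGTCA, at -186, and no kappaB match in these letters. Over all 32817 RefSeq promoters of the table, in windows of 250 bases before to 50 after the start, 8.46% held a kappaB match, 16.3% a half-site, 0.00914% the half-site repeat, 7.81% an AP-1 site, 13.6% a TATA box and 3.43% an interferon element. Among the other CC chemokine genes with an entry, Ccl1 and Ccl9 also held kappaB matches, and Ccl1 was listed at 0 in all 4 libraries. A match is a description of the letters and not of binding.

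Ccl2, the monocyte chemoattractant MCP-1, was the first of the genes to reach a high level. It was at 0.133 FPKM in the control library, 0.767 at 0 days, 14.8 at 6 days and 39.0 at 10 days. On its shortest transcript of 813 nt these levels were worth about 2.3, 14.1, 266 and 698 fragments, so the 6-day and 10-day levels carry counting errors of 6.13% and 3.78%. Its level at 6 days was 19.3 times that at 0 days and 38.0% of that at 10 days. The control and 0-day libraries were low and both later libraries high, with the larger step between 0 and 6 days: the log2 differences were 0.64 from control to 0 days, 3.16 from 0 to 6 days and 1.34 from 6 to 10 days.

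Ccl7, the related chemoattractant MCP-3, lies next to Ccl2 on the chromosome and was lower in both later libraries. It was at 0.131 FPKM in the control library, 0.124 at 0 days, 2.70 at 6 days and 17.2 at 10 days. The first pair of levels is worth about 2.2 fragments each and lies under the floor, while the later levels rest on about 48 and 303 fragments, with counting errors of 14.5% and 5.74%. Its level at 6 days was 15.7% of that at 10 days, and the step from 6 to 10 days was 6.38-fold. The log2 differences were -0.01 from control to 0 days, 1.72 from 0 to 6 days and 2.30 from 6 to 10 days, so on this scale the later step was the larger, the opposite of the order in Ccl2. That order rests on the pseudocount of 1, since with 0.1 the steps were 3.64 from 0 to 6 days and 2.63 from 6 to 10 days.

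Ccl20, known as MIP-3 alpha and a product of epithelia that attracts Ccr6-bearing lymphocytes and dendritic cells, reached the highest level, nearly all of it after 6 days. It was at 0.199 FPKM in the control library, 0.243 at 0 days, 4.56 at 6 days and 62.1 at 10 days, or about 3.2, 4.2, 78 and 1056 fragments on its shortest transcript of 772 nt. Only 7.33% of the 10-day level was present at 6 days, and the step from 6 to 10 days was 13.6-fold. The log2 differences were 0.05 from control to 0 days, 2.16 from 0 to 6 days and 3.51 from 6 to 10 days. Here too the order of the steps rests on the pseudocount: with 0.1 they were 3.76 and 3.74, and in plain FPKM the 6-day level was 18.8 times a 0-day level of about 4.2 fragments. Counting errors were 11.4% at 6 days and 3.08% at 10 days, far smaller than the step between them, but they do not include the spread between cultures, which 1 library cannot show.

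**Figure D1:**
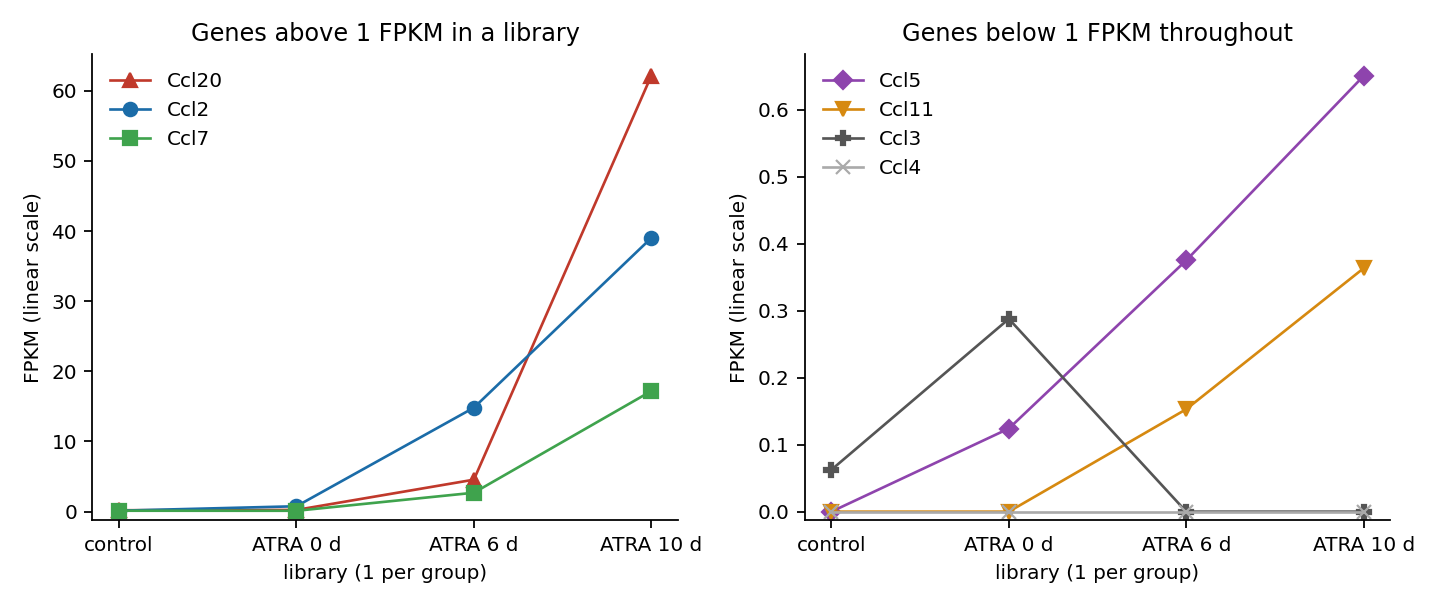
Level in FPKM (vertical axis, linear scale) of each of the 7 CC chemokine genes in the 4 libraries (horizontal axis), 1 point per library, with lines only joining points of one gene and no error bars since each group has 1 library. In the left panel Ccl20 ends at 62.1, Ccl2 at 39.0 and Ccl7 at 17.2 FPKM; in the right panel, on a scale below 1 FPKM, Ccl5 and Ccl11 are highest at 10 days and Ccl3 at 0 days.

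The order of the 3 genes changed between the libraries. At 6 days Ccl2 was highest, followed by Ccl20 and Ccl7, and all 3 levels lay further apart than their counting errors. At 10 days Ccl20 was above Ccl2 and Ccl2 above Ccl7. In the control and at 0 days Ccl7 and Ccl20 lay within a few fragments of the floor, so no order between them can be read there. Set against all genes, Ccl20 stood above 33.4% of the compared genes of its library at 6 days and above 88.0% at 10 days. Ccl2 stood above 63.0% and 81.7%, and Ccl7 above 22.9% and 65.0%.

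Of the 7 genes, 3 passed the filter of 1 FPKM, and they passed through the later libraries where they are high. From control to 0 days 0 of these 3 were called higher, against 12.2% of all compared genes. From 0 to 6 days all 3 were called higher, against 8.22% of compared genes, and from 6 to 10 days again all 3, against 3.7%. Between 10 days and the control all 3 were higher, with log2 differences of 5.72 for Ccl20, 5.14 for Ccl2 and 4.01 for Ccl7, against 19.6% of compared genes called higher. None of the 3 was called lower in any of these 4 comparisons, against 12.8%, 4.88%, 0.85% and 17.1% of compared genes in turn. The median difference over all compared genes was -0.04 from control to 0 days, 0.01 from 0 to 6 days, 0.02 from 6 to 10 days and -0.04 between 10 days and control. Since the genes were listed for this pattern, nothing is read from the counts, and the comparisons share libraries.

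Ranked among the 5885 compared genes by their log2 difference from 6 to 10 days, Ccl20 stood at rank 16, Ccl7 at rank 22 and Ccl2 at rank 95. From 0 to 6 days Ccl2 led instead, at rank 31, with Ccl20 at rank 113 and Ccl7 at rank 171. At a call of 4-fold, Ccl7 no longer passed from 0 to 6 days and Ccl2 no longer passed from 6 to 10 days.

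**Figure D2:**
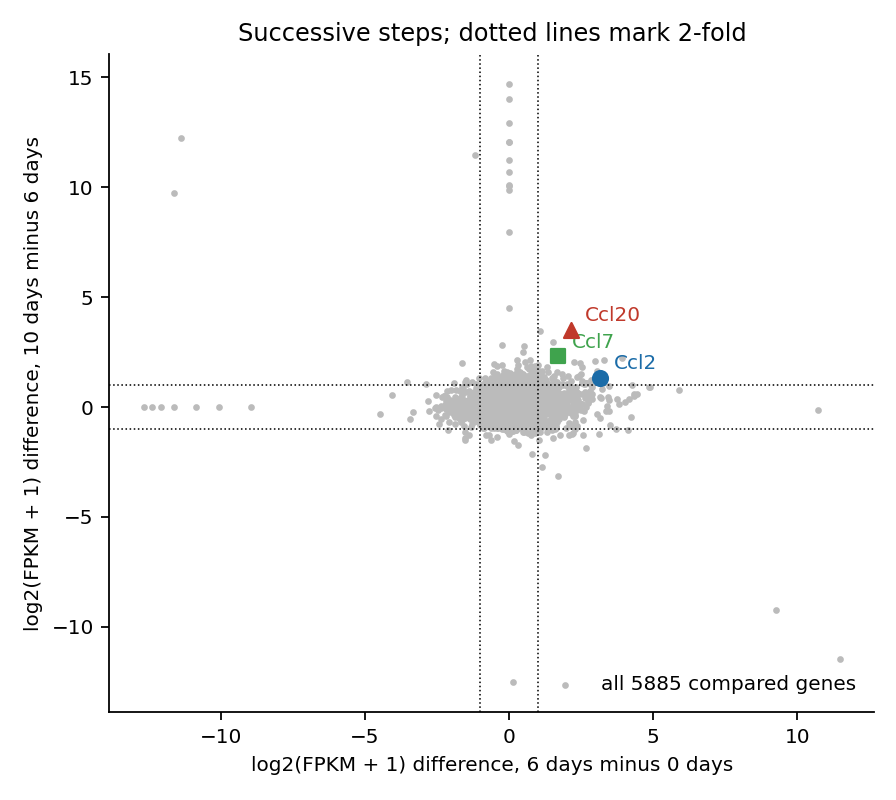
Difference of log2(FPKM + 1) from 0 to 6 days (horizontal axis) against that from 6 to 10 days (vertical axis) for the 5885 compared genes, with Ccl2, Ccl7 and Ccl20 in colour and dotted lines at 2-fold; both axes share the 6-day library. All 3 genes lie in the upper right field, Ccl2 farther along the earlier step (3.16) and Ccl20 farther along the later one (3.51).

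Ccl5, or RANTES, which T cells and inflamed tissues make, was listed at 0 in the control and stood at 0.124, 0.375 and 0.651 FPKM at 0, 6 and 10 days. These levels are worth about 1.5, 4.4 and 7.6 fragments, so the gene is detected above the floor at 6 and 10 days and no more precise statement can be made. Its log2 difference between 10 days and control was 0.72 and depends on the pseudocount, reaching 2.91 with 0.1 in place of 1.

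Ccl11, or eotaxin, was listed at 0 in the control and at 0 days, and stood at 0.153 FPKM at 6 days and 0.364 at 10 days. About 3.7 and 8.7 fragments lie behind those values. Like Ccl5 it was highest at 10 days, and like Ccl5 it did not pass the filter of 1 FPKM. Its log2 difference between 10 days and control was 0.45, and 2.21 with a pseudocount of 0.1.

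Ccl3 and Ccl4, the macrophage inflammatory proteins MIP-1 alpha and MIP-1 beta, were listed at 0 at 6 and 10 days. Ccl3 was at 0.0626 FPKM in the control and 0.288 at 0 days, about 1.0 and 5.0 fragments, so at 0 days it lay above the floor. It was the one gene of the 7 with its highest value at 0 days. Ccl4 was listed at 0 in all 4 libraries. A listing at 0 allows a level up to the floor of about 0.170 FPKM on a transcript of 800 nt at 6 and 10 days.

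The table held 13 of 21 listed CC chemokine genes, the 7 above and 6 others. Ccl1 and Ccl8 were listed at 0 in all libraries. Ccl6 and Ccl12, a further Ccr2 ligand of the mouse, were listed above 0 only at 10 days, at 0.0790 and 0.120 FPKM. Ccl9 went from 0.0337 FPKM in the control through 0.0146 and 0.0586 to 0.295 at 10 days, and Ccl28, a mucosal chemokine, stayed between 0.0100 and 0.0168 FPKM. None of the 6 reached 1 FPKM. The number of the 13 listed above 0 was 6 in the control library, 7 at 0 days, 7 at 6 days and 9 at 10 days. Ccl6 and Ccl12 at 10 days rest on about 0.8 and 1.3 fragments on their shortest transcripts. Both lie under the floor, so nothing is read from the larger number at 10 days.

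The summed level of the 13 genes was 0.570 FPKM in the control library, 1.57 at 0 days, 22.7 at 6 days and 119.85 at 10 days. Ccl2, Ccl7 and Ccl20 together made up 97.4% of the sum at 6 days and 98.7% at 10 days. The lead passed from Ccl2, with 65.4% of the sum at 6 days and 32.6% at 10 days, to Ccl20, with 20.1% and then 51.8%. Ccl7 kept 11.9% and 14.3%.

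**Figure D3:**
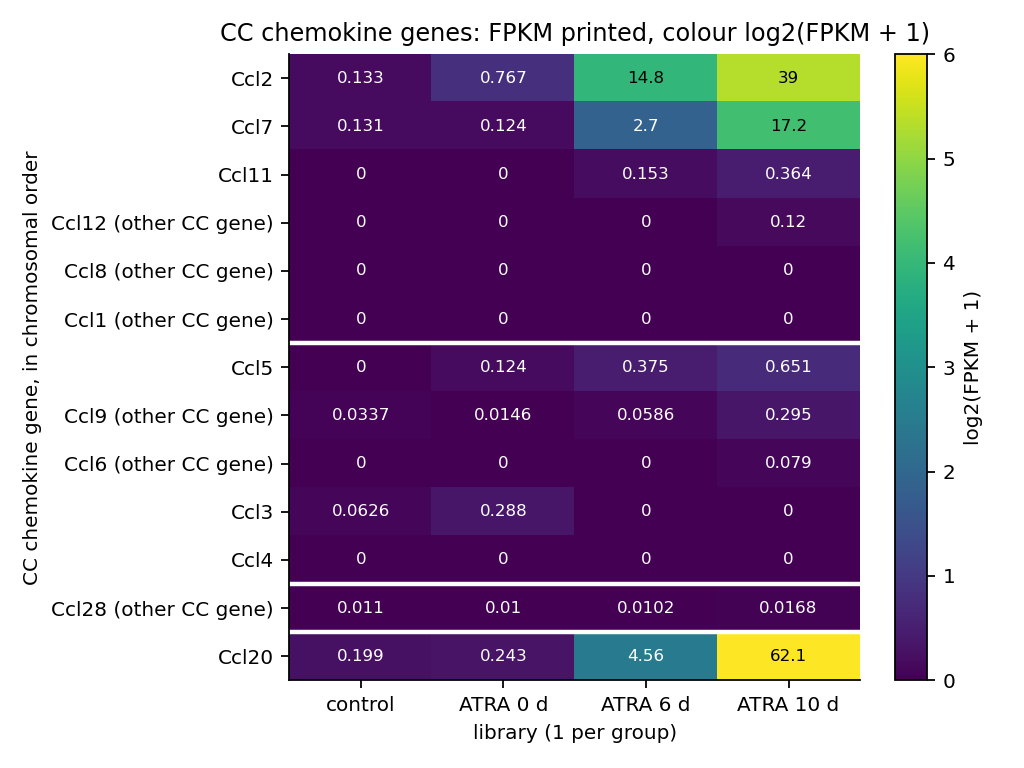
FPKM (printed) and log2(FPKM + 1) (colour) of the 13 CC chemokine genes in the table, in chromosomal order from top to bottom, in the 4 libraries; white lines part the first chromosome 11 cluster, the second one, Ccl28 and Ccl20. High values sit in 2 rows at the top of the first cluster, Ccl2 and Ccl7, and in the bottom row, Ccl20, at 6 and 10 days.

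By GENCODE M21 on mm10, the genes fall at 3 places. Ccl2 lies at chr11:82035571-82037453, Ccl7 at chr11:82045712-82047525 and Ccl11 at chr11:82057823-82062955, all on the plus strand and followed by Ccl12, Ccl8 and Ccl1. Ccl5 at chr11:83525778-83530518 and Ccl3 at chr11:83647844-83649355, both on the minus strand, and Ccl4 at chr11:83662584-83664683 on the plus strand belong to a second cluster with Ccl9 and Ccl6, which starts 1220 kb after the first one ends. Ccl20 stands apart at chr1:83116766-83119167 on the plus strand.

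Levels within the first cluster at 10 days went down along the chromosome, from 39.0 FPKM for Ccl2 to 17.2 for Ccl7 8.3 kb away, 0.364 for Ccl11 a further 10.3 kb away and 0.120 for Ccl12 38.9 kb beyond that. At 6 days the order was the same, at 14.8, 2.70, 0.153 and 0 FPKM. In the second cluster none of the 5 genes exceeded 0.651 FPKM in any library. The order in the first cluster is one of 4 genes, with Ccl12 under the floor at 10 days at about 1.3 fragments, and was not tested.

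Genes beside the clusters had other profiles. Asic2, an ion channel gene 67.1 kb from Ccl2, was at 0.206, 1.80, 0.361 and 0.198 FPKM in the control and at 0, 6 and 10 days, highest at 0 days. Taf15, a widely expressed RNA-binding protein gene 19.0 kb from Ccl5, was at 94.0, 74.0, 54.3 and 70.8 FPKM. Heatr9, 3.6 kb from Ccl5, did not exceed 0.0189 FPKM. On the far side of Ccl4, Wfdc17 and Wfdc18 were listed above 0 only at 10 days, at 0.155 and 0.124 FPKM. Beside Ccl20, Daw1, 40.6 kb away, did not exceed 0.0930 FPKM, and Slc19a3, a thiamine transporter gene 78.3 kb away, was at 0.110, 0.736, 0.628 and 0.365 FPKM. At 10 days Asic2, Slc19a3 and Daw1, the measured genes beside the 3 high chemokine genes, were all under 1 FPKM.

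The Ccl2 span overlaps the annotated gene Gm17268 on the opposite strand, and with the use of strand not stated for these values, reads from both could not be told apart where their exons meet. No stretch of 50 bases in the annotated transcripts of any of the 7 genes was shared with a transcript of another gene on either strand. The annotated exons of Ccl2 and Gm17268 therefore meet over no stretch of that length.

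The expression table covers only part of the chromosomes, so the absence of a gene from it says nothing of its expression. Of 17 other chemokine ligands listed, 3 were in the table, and 1 of them passed the filter. That gene, Cxcl16, a transmembrane chemokine that is also a scavenger receptor, was at 1.63 FPKM in the control library, 2.71 at 0 days, 10.1 at 6 days and 22.6 at 10 days. Its log2 differences were 0.50, 1.58 and 1.08 over the 3 steps and 3.17 between 10 days and control, the last of which keeps its call under every scaling tried. The step from 6 to 10 days fell under 2-fold with upper-quartile scaling, at 0.96, and with small and ribosomal RNAs left out of the scaling, at 0.90.

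Chemokine receptors were in the table, with the same limit, for 8 of 23 listed genes, and 2 passed the filter. Ackr3, an atypical receptor that takes up Cxcl12, was at 1.39, 5.69, 18.0 and 20.4 FPKM in the control and at 0, 6 and 10 days, with a log2 difference of 3.16 between 10 days and control. Cxcr4, the signalling receptor for Cxcl12, was at 0.636, 0.366, 5.71 and 2.35 FPKM, highest at 6 days, with a log2 difference of 1.03 between 10 days and control that fell to 0.96 when small and ribosomal RNAs were left out of the scaling. Ccr6, the receptor of Ccl20, did not exceed 0.0672 FPKM in any library and was listed at 0 at 6 days. Ccr2 and Ccr3, receptors of Ccl2, Ccl7 and Ccl11, were not analysed here.

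Genes of NF-kappaB and inflammatory signalling were taken from a list of 50, of which 23 were in the table and 18 passed the filter. From 0 to 6 days 3 of the 18 were called higher and 2 lower, against 8.22% and 4.88% of all compared genes. From 6 to 10 days 4 were called higher and 0 lower, against 3.7% and 0.85%. Between 10 days and control 7 were called higher and 1 lower, against 19.6% and 17.1%. The list's median log2 difference was 0.07, 0.60 and 0.87, against 0.01, 0.02 and -0.04 over all compared genes.

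Tnfaip2, a target of tumour necrosis factor signalling, was at 0.617 FPKM in the control library, 1.31 at 0 days, 6.31 at 6 days and 15.2 at 10 days, and its log2 difference between 10 days and control was 3.33. Ptgs2, the inducible cyclooxygenase, was at 0.183, 0.100, 4.20 and 4.88 FPKM, with a difference of 2.31. Cebpd, a transcription factor of the acute phase response, was at 0.870, 0.736, 1.67 and 6.02 FPKM, with a difference of 1.91. Ikbke, a kinase of the NF-kappaB and interferon pathways, was at 2.11, 1.64, 4.78 and 10.6 FPKM, with a difference of 1.89. These 4 were picked as the largest differences between 10 days and control in the list. That the 10-day library was the highest in all 4 follows largely from that choice. Irf1 and Fos of the same list were highest at 0 days. With small and ribosomal RNAs left out of the scaling, 2 in place of 4 genes of the list were called higher from 6 to 10 days. In that setting 2.36% of all compared genes were called higher, and Tnfaip2 was at 0.97 in that step.

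Markers of other cell types that the bodies could hold moved with the chemokine genes, and their part in the result was not tested. Of 32 macrophage and pan-leukocyte markers 18 were in the table and 9 passed the filter, of which 4 were higher at 10 days than in the control and 1, Rac2, was lower, against 19.6% and 17.1% of all compared genes. The 4 were Lcp1, an actin-bundling protein of leukocytes, at 0.184, 3.57, 17.2 and 16.1 FPKM, Fcgr3, an antibody receptor, at 0.409, 1.45, 5.86 and 13.1, Cd14, the lipopolysaccharide co-receptor, at 0.229, 0.414, 2.31 and 7.52, and Csf1r, the receptor for macrophage colony-stimulating factor, at 0.0281, 0.803, 1.44 and 4.15. The pan-leukocyte marker Ptprc, however, was at no more than 0.0332 FPKM in any library, and the macrophage markers Adgre1 and Aif1 at no more than 0.0240 and 0.0887.

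The summed level of the macrophage and pan-leukocyte list was 1461 FPKM in the control library, 582 at 0 days, 949 at 6 days and 780.0 at 10 days, of which Cd68, a lysosomal protein, held most, at 1455, 572, 920 and 736 FPKM. Without Cd68 the sum was 6.20, 10.2, 28.9 and 43.9 FPKM. Of 20 lymphocyte, granulocyte and mast cell markers 6 were in the table and 0 passed the filter. Their sums were 0.0185 to 0.0421 FPKM, and the granule protease genes Gzma, Gzmb, Elane and Ctsg were listed at 0 in all libraries.

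Endothelial markers went another way, with 5 of 16 in the table and 3 compared. Pecam1, at 21.1, 1.37, 4.15 and 2.05 FPKM, and Mmrn2, at 11.1, 1.81, 0.974 and 0.850, were lower at 10 days than in the control, while Cldn5, at 0.162, 0.901, 0.697 and 1.88, was higher. The list's sum was 32.4 FPKM in the control and between 4.85 and 5.95 in the other libraries. Pecam1 is also known from embryonic stem cells.

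Fibroblast and mesenchyme markers, all 13 in the table compared, were higher in 12 at 10 days against the control, where 19.6% of all compared genes were higher. Several of them, such as Col3a1 and Dcn, were near 0 in the control and passed the filter through the later libraries. For those genes the call was nearly fixed in advance. The list's sum was 43.9, 68.2, 111 and 223 FPKM in the control and at 0, 6 and 10 days. Fn1, the fibronectin gene and the one not called higher, held 41.8, 46.8, 39.5 and 70.1 FPKM of it, and without Fn1, left out after its values were seen, the sum was 2.14, 21.4, 71.7 and 153 FPKM. Col1a1, a chain of type I collagen, went from 0.328 FPKM in the control to 14.6 at 6 days and 42.8 at 10 days. Col3a1, of type III collagen, stood at 0.0063, 20.4 and 42.5 FPKM in those libraries, and Dcn, the matrix proteoglycan decorin, at 0, 4.83 and 13.9. Both collagens thus had levels near that of Ccl2 at 10 days.

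Trophoblast markers, genes of placental cells, were in the table for 13 of 18, and all 10 that passed the filter were higher at 10 days than in the control, against 19.6% of all compared genes. None of the 10 exceeded 0.0976 FPKM in the control, so they passed the filter through the later libraries. Their call was nearly fixed in advance, and nothing is read from the count. Ctsm, at 0.116 FPKM in the control and 0 at 10 days, did not pass the filter. The list's sum was 0.662 FPKM in the control library, 4.02 at 0 days, 202 at 6 days and 398 at 10 days. Krt7, a simple epithelial keratin, held most of this sum at 0, 6 and 10 days. It was at 0.0976, 3.83, 140 and 260.0 FPKM, and the placental cathepsin Ctsj at 0.0675, 0, 8.91 and 43.1 FPKM. Prl2b1 and Tpbpa, of the placental prolactins and the spongiotrophoblast, were at 29.4 and 28.0 FPKM at 10 days. From 6 to 10 days, where Ccl20 went from 4.56 to 62.1 FPKM, 3 of the 10 were called higher, against 3.7% of all compared genes. With a pseudocount of 0.1 or 0.5 it was 6 of the 10, against 6.17% and 4.74% of all compared genes.

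All 12 endoderm markers in the table were compared, and 11 were higher at 10 days than in the control, against 19.6% of all compared genes. Their sum was 194 FPKM in the control library, 383 at 0 days, 2625 at 6 days and 3768 at 10 days. Sparc, a matrix glycoprotein, held most of it, at 133, 259, 1862 and 2711 FPKM, and without Sparc, left out after its values were seen, the sum was 61.1, 124, 763 and 1056 FPKM. Ttr, the transthyretin of visceral endoderm and liver, went from 1.07 FPKM in the control to 183 at 6 days and 356 at 10 days, Apoa2 from 0.107 to 40.8 and 146, and Sox17, an endoderm transcription factor, from 1.75 to 39.6 and 43.5. From 6 to 10 days 1 of the 12, Apoa2, was called higher, against 3.7% of all compared genes. Neuronal markers did not follow the chemokine genes at the last step: Nefl, a neurofilament gene, was at 2.88, 2.58, 39.6 and 21.8 FPKM, and 0 of 5 compared markers were called higher and 2 lower from 6 to 10 days, against 3.7% and 0.85% of all compared genes.

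Profiles most like those of the chemokine genes were sought among 5444 genes, by the Euclidean distance between log2(FPKM + 1) profiles over the 4 libraries, each centred on its mean, where 0 is the same shape. Only 4 points define each profile, so many genes lie close. Nearest to Ccl2 were Vnn1, a pantetheinase, at a distance of 0.26, the tight junction gene Cldn7 at 0.30, Col1a1 at 0.50, Fhl2 at 0.52 and Hand1, a transcription factor of trophoblast and heart, at 0.68. Vnn1 was at 0.227, 1.25, 20.5 and 44.7 FPKM in the control and at 0, 6 and 10 days, close to Ccl2 in level as well.

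Nearest to Ccl7 were the placental prolactin genes Prl8a9 at 0.49 and Prl2c5 at 0.69, then Dcn at 0.73, Serpinb6b at 0.76 and Galnt6 at 0.78. For Ccl20 the nearest genes were Prl8a9 at 0.99, Ctsj at 1.04, Psca at 1.07, Prl2c5 at 1.16 and Prl2a1 at 1.35. Psca, a surface antigen gene, was at 1.43, 5.57, 12.7 and 151 FPKM, and like Ccl20 was far higher at 10 days than at 6 days. Prl8a9, at 0, 0.0469, 2.01 and 22.3 FPKM, led both lists. Among themselves the chemokine genes lay at 1.53 between Ccl2 and Ccl7, 1.60 between Ccl2 and Ccl20 and 1.37 between Ccl7 and Ccl20. The nearest 5 were picked as the closest of 5444 genes, so larger distances between members say little. Ccl7 lay barely farther from Ccl20 than Prl2a1 did. With a pseudocount of 0.1 in place of 1, 1 of the 5 nearest genes of Ccl2, 0 of those of Ccl7 and 2 of those of Ccl20 were still among the nearest 5.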

How the data were processed

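RNA was sequenced from 4 embryoid body libraries, 1 per group, grouped by the labels. Total RNA was used, per the labels' protocols, with cDNA made with oligo(dT) primers. The table deposited by the authors holds FPKM for each library, per the file headers. The tools Trimmomatic, TopHat and Cufflinks and the build mm10 are given per the submitters' processing notes. The annotation, strand use and filters are not stated. The unit divides by the library total, so very abundant transcripts lower all other values of their library.

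The 10201 rows held 9997 symbols; 177 symbols had several rows, which were summed. The table covers genes of chromosomes 1 and 10 to 18 (75.2% to 91.4% of protein-coding genes of each), and genes elsewhere were not analysed here. Of 249 entries in 11 gene lists, 121 were in the table. Differences of log2(FPKM + 1) were taken for the 5885 symbols that reached 1 FPKM in some library and called at 2-fold. With 1 library per group there is no test and no error between replicates. FPKM holds no counts, so fragments were estimated from low values above 0, times length, of genes with 1 transcript. The median of the values inside a fixed range was taken, over transcripts of 2000 nt or more for the library total. For the worth of a fragment for the chemokine genes, transcripts of 650 to 1100 nt were used. The estimates depend on these ranges. Counting errors are the square root of the estimated fragments, as a percentage of them.

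The members and lists were chosen with earlier results of these data known. The genes named are the 7 members, the other CC chemokine genes in the table, up to 4 genes per further list with the largest difference between 10 days and control, the 5 nearest profiles of each member that passed the filter, and protein-coding neighbours; Ptprc, Adgre1, Aif1, Cd68, Rac2, Ccr6, Pou5f1 and the genes at 0 were added as markers or receptors of these genes. Alternatives were pseudocounts of 0.1 and 0.5, other filters, 3 other scalings, a 4-fold call, and the highest row of a repeated symbol. The script that makes the calls was checked on simulated data with planted fold changes, which bears on the script and not on these libraries. Python 3.11.15, numpy 2.4.6, pandas 2.3.3 and matplotlib 3.10.9 were used.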

Additional observations from a re-analysis of the deposited data

How the results depend on the processing

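The log2 differences of Ccl2, Ccl7 and Ccl20 from 0 to 6 days, from 6 to 10 days and between 10 days and control stayed at or above 2-fold under every alternative except the 4-fold call, where Ccl7 (1.72, 0 to 6 days) and Ccl2 (1.34, 6 to 10 days) missed it and 2, 2 and 3 of the 7 genes were called. At the 4-fold call 2.26%, 0.493% and 7.97% of all compared genes were called higher in turn. Over the alternatives the difference between 10 days and control ran from 5.00 to 7.39 for Ccl2, 3.87 to 6.23 for Ccl7 and 5.58 to 7.70 for Ccl20. From control to 0 days, pseudocounts of 0.1 and 0.5 each gave 1 called gene in place of 0, Ccl2, at 1.90 and 1.00. In these settings 18.9% and 15.4% of all compared genes were called higher. Of 204 alternative values of the members' differences 192 stayed on their side of the threshold and 0 changed sign past it. A changed filter leaves a gene's difference as it was, so some of these values could not move.

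For Ccl7 and Ccl20 the order of the steps from 0 to 6 and from 6 to 10 days turned with a pseudocount of 0.1 (3.64 and 2.63, 3.76 and 3.74). The 3 other scalings changed no count of the 7 genes but moved the counts over all genes. The share of higher among all called genes from control to 0 days was 48.9%, and 60.6%, 65.6% and 72.1% with median-ratio scaling, upper-quartile scaling and FPKM rescaled without small and ribosomal RNAs. From 0 to 6 days it was 62.8%, and 46.1% in the last of these. From 6 to 10 days it was 81.3%, and 67.5% and 59.9% in the last pair, and 66.2% with a pseudocount of 0.1. Between 10 days and control it was 53.5%, and 63.2%, 58.8% and 50.8%. The median of all genes from control to 0 days was 0.07, 0.15 and 0.25 under the 3 scalings, from 0 to 6 days -0.18 and from 6 to 10 days -0.14 under the last.

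Counts of all genes called higher were 720, 484, 218 and 1156 in the 4 comparisons. From control to 0 days a pseudocount of 0.1 gave 1111 and rescaling 1125; from 6 to 10 days they gave 363 and 139. The 4-fold call gave 192, 133, 29 and 469. With a filter of 5 FPKM, which tests fewer genes, 7 in place of 12 fibroblast markers were called higher between 10 days and control. So were 6 in place of 10 trophoblast markers, against 19.1% of all compared genes. These were all the markers of both lists that reached 5 FPKM, apart from Fn1. For genes near 0 in the control the call was nearly fixed by the filter here too. Macrophage markers called lower between 10 days and control were 0 to 3 over the alternatives. With a pseudocount of 0.1 it was 3 of 9, and 1219 of all 5885 compared genes were called lower. Of 720 alternative list counts 75 moved by more than 1.5 times.

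No paired analysis was possible because each group has 1 library. Leaving out a replicate was not possible for the same reason. Ccl3, Ccl4, Ccl5 and Ccl11 rest on fewer than 9 estimated fragments on their shortest transcript in every library, so their order and course are uncertain at this depth.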

Other observations

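Some genes of the NF-kappaB and inflammatory list differed from Ccl2, Ccl7 and Ccl20 in course, level or size of change. They were chosen after their values were seen. Irf1, an interferon-induced transcription factor, was at 10.2 FPKM in the control, then 40.6, 11.4 and 10.7 FPKM, highest at 0 days. Fos, an immediate early gene, was at 46.0, 72.2, 5.35 and 13.0 FPKM, also highest at 0 days, and was the one gene of the list called lower at 10 days than in the control. Tnf, the cytokine itself, was also higher at 6 days and again at 10 days, but stayed below 1 FPKM in every library. It was at 0.0542, 0.0737, 0.354 and 0.726 FPKM in the control and at 0, 6 and 10 days. Nfkbia, coding for the inhibitor that NF-kappaB induces, was at 21.4, 26.1, 25.1 and 42.1 FPKM, a log2 difference of 0.94 between 10 days and control. Rasl10b, a small GTPase gene 104.7 kb from Ccl5, was at 0.381 FPKM in the control library, 7.67 at 0 days, 1.77 at 6 days and 1.45 at 10 days.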
